A study of Homo sapiens with 6 samples.

Results

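The 10 chemokine genes described here are ones that liver tumour cells can transcribe, and they were followed in Huh7, an established human hepatoma line. They were picked by gene symbol: IL8 (the table's name for CXCL8), CXCL1, CXCL2, CXCL3, CXCL5, CXCL10, CXCL16, CCL2, CCL20 and CX3CL1. Each had 1 row, so the set is 10 of the 23344 genes of the deposited table. Huh7 cells with a control lentivirus (labelled shNC) were compared with Huh7 cells with a lentivirus against the V1 isoform of versican (labelled sh2), at 3 libraries per group. Versican, encoded by VCAN, is a large proteoglycan of the extracellular matrix. Both groups had been exposed to lentivirus and polybrene, and the knockdown label names 1 hairpin, so an effect of that hairpin other than on VCAN cannot be told apart from the loss of VCAN. The labels do not state separate cultures, so p-values here cover library-to-library spread alone, and that spread may be technical.

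Chemokines are small secreted proteins that steer migrating leukocytes through G protein-coupled receptors. Their presentation depends on binding to the sugar chains of proteoglycans. CXC chemokines that carry the glutamate-leucine-arginine (ELR) motif before the first cysteines, among them the products of IL8, CXCL1, CXCL2, CXCL3 and CXCL5, draw neutrophils through CXCR1 and CXCR2. The products of CXCL10 and CXCL16 act on CXCR3 and CXCR6, that of CCL2 on CCR2 of monocytes, that of CCL20 on CCR6, and that of CX3CL1 on CX3CR1. Many of these genes are transcribed at a low rate until NF-kB and AP-1 factors are activated, for example by interleukin-1 or tumour necrosis factor.

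On chromosome 4 lie 6 of the 10 genes, IL8, CXCL1, CXCL2, CXCL3, CXCL5 and CXCL10. CCL20 lies on chromosome 2, CX3CL1 on chromosome 16, and CXCL16 and CCL2 on chromosome 17. RefSeq promoter windows (build GRCh38.p14) were matched by symbol for 7 members; those of CXCL16, CCL2 and CX3CL1 were not used here. The bases just before the transcript start are shown for these 7 because they hold the sequence that the members share, 140 bases each and 180 for CXCL10, 5′ to 3′ on the gene's strand. Capitals mark every match, on either strand, to the NF-kB (kappa-B) consensus or to the 9 bases GGAATTTCC.
IL8, chr4:73740429-73740568, plus strand: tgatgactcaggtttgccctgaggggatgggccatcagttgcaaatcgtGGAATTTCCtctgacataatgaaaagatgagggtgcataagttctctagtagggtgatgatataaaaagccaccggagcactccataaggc
CXCL1, chr4:73869253-73869392, plus strand: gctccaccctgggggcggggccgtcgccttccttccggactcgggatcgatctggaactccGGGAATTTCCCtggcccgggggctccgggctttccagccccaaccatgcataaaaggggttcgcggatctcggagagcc
CXCL2, chr4:74099196-74099335, minus strand: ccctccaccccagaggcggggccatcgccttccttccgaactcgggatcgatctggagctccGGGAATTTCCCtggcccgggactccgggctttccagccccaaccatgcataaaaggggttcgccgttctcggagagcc
CXCL3, chr4:74038690-74038829, minus strand: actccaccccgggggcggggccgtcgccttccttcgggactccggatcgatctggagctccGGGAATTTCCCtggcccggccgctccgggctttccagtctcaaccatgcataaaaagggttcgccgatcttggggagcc
CXCL5, chr4:73998678-73998817, minus strand: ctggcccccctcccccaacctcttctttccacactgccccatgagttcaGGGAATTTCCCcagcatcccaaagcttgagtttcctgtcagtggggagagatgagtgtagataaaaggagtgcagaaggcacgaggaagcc
CXCL10, chr4:76023498-76023677, minus strand: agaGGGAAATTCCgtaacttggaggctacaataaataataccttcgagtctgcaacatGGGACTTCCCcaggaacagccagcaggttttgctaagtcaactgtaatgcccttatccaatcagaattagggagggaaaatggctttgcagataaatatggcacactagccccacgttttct
CCL20, chr2:227813702-227813841, plus strand: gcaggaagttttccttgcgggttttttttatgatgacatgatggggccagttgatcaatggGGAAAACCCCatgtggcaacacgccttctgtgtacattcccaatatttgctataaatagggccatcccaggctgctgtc

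A window of 250 bases before to 50 bases after the start held the kappa-B consensus in 6 of the 7 members and in 5.91% of 35116 promoters in the RefSeq table. GGAATTTCC, which overlaps that consensus at most of these places, stood in 6 of the 7 members and in 0.461% of all promoters. In IL8 it began 91 bases before the start and missed the consensus by its flank. In CXCL1, CXCL2, CXCL3 and CXCL5 it began 78, 77, 78 and 90 bases before the start. CXCL10 had a consensus match beginning 177 and another 122 bases before the start, and CCL20 had one 79 bases before the start without the exact 9 bases. The AP-1 site TGANTCA was found in IL8 alone of the members, beginning 137 bases before the start, and in 7.71% of all promoters. The interferon response core GAAANNGAA was found in CXCL2, CXCL3 and CXCL10 and in 8.11% of all promoters, TATAAA in IL8 and CCL20 and in 11.5%, and TGACGTCA in 0 members and in 1.85%. All motifs were searched on both strands, and a match describes letters, not binding.

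**Figure D1:**
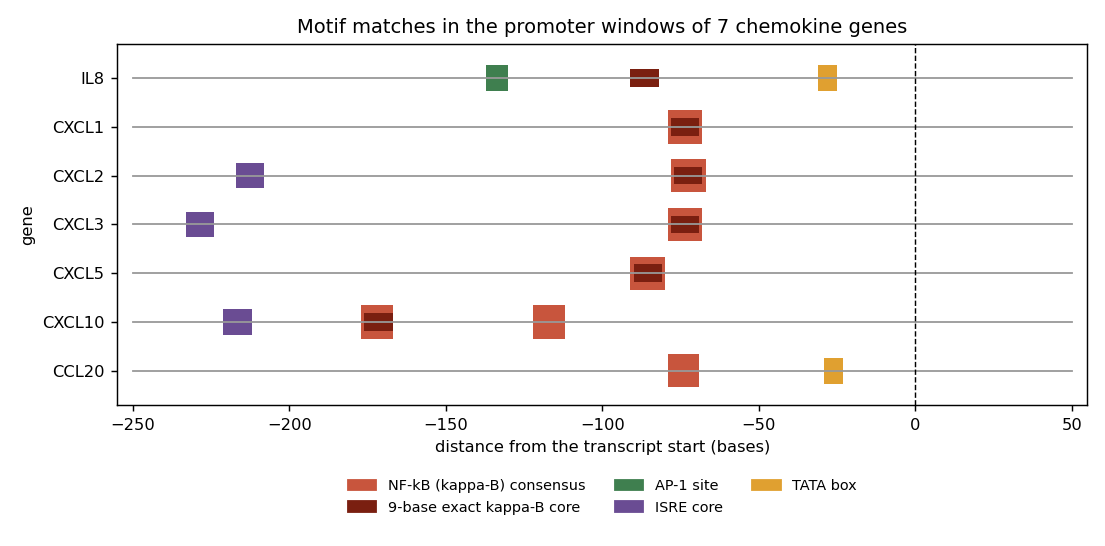
Motif matches in the promoter windows of the 7 chemokine genes with a RefSeq entry; the x axis is the distance in bases from the transcript start (dashed line), each row is a gene and coloured blocks are matches on either strand. A match to the consensus or, in IL8, to GGAATTTCC alone lies within 91 bases of the start in IL8, CXCL1, CXCL2, CXCL3, CXCL5 and CCL20, and CXCL10 has its matches farther out, beginning 122 and 177 bases before the start.

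The values are per length and were treated as FPKM, with a read total per library that is unknown. VCAN was 4.79, 6.24 and 8.10 in the control replicates and 1.90, 1.74 and 1.64 in the knockdown replicates (log2 fold change -1.39, SE 0.19, limma adjusted p = 0.0103; 0.0537 without control replicate 2). The table has 1 row for VCAN and does not separate the V1 isoform. The hepatoma markers ALB and AFP were abundant in every library: ALB lay between 3128 and 4006 and AFP between 1057 and 1761. Of 8 hepatoma markers, all tested, 1 rose and 1 fell in the knockdown libraries, beside 4.15% and 3.94% of all genes tested. APOA1 rose (log2 fold change 1.05, limma adjusted p = 0.0325) and TTR fell (-1.19, adjusted p = 0.0077). Whether these 2 calls hold without 1 library was not tested. The 13 mitochondrially encoded genes took 15.98% to 19.2% of all values in control and 23.8% to 31.2% in knockdown libraries. Of 14 leukocyte markers, 13 had a row, and their sum was 79.6 to 93.4 in control and 111 to 206 in knockdown libraries, most of it CD14 and LYZ. PTPRC, the leukocyte marker CD45, was 1.96 in knockdown replicate 2 and at most 0.16 in the other libraries, and S100A8 was 17.9 there and 0 in the others. The part of such transcripts in the results was not tested. That S100A8 was high in this library was known when the marker list was written. LYZ was 18.3, 24.7 and 24.8 in control and 44.5, 68.2 and 37.8 in knockdown libraries, so this marker was higher in all 3 knockdown libraries (log2 fold change 1.08, limma adjusted p = 0.0277; 0.0688 without knockdown replicate 2, 0.0597 to 0.0915 without any 1 control library). CD14 did not pass (0.20, adjusted p = 0.456).

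Of the 10 members, 9 reached 1 or more in 3 or more libraries and entered the test of 13696 genes. IL8, CCL20 and CXCL3 rose and CXCL16 fell in the knockdown libraries, while CXCL1, CXCL2, CXCL5, CXCL10 and CX3CL1 did not pass (limma on log2 of value + 1, Benjamini-Hochberg adjusted p below 0.05). In these bulk libraries, fewer cells of a type and less RNA per cell cannot be told apart. The calls make up 4 of 9, beside 8.08% of all genes tested. The 3 that rose stand beside 4.15% of genes that rose and the 1 that fell beside 3.94% that fell. The groups did not overlap for 8 of the 9 tested members, 7 of them higher and 1 lower in knockdown, beside 33.1% of all genes tested, 14.4% higher and 18.7% lower. Over the 9 members the fold changes had a median of 0.66 on the log2 scale, and over all genes tested of -0.03. Since the members were chosen with results of these data known, these counts describe them and are no test of the set. The number called rests on which libraries were used: it was 8 without knockdown replicate 1, 1 without control replicate 2, and 2 without any 1 of the other 4 libraries. The number over all genes moved the same way. It was 1107 of 13696 with all libraries, 3284 of 13408 without knockdown replicate 1 and 56 of 13511 without control replicate 2. Calls gained or lost in these fits are thus not particular to the members.

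**Figure D2:**
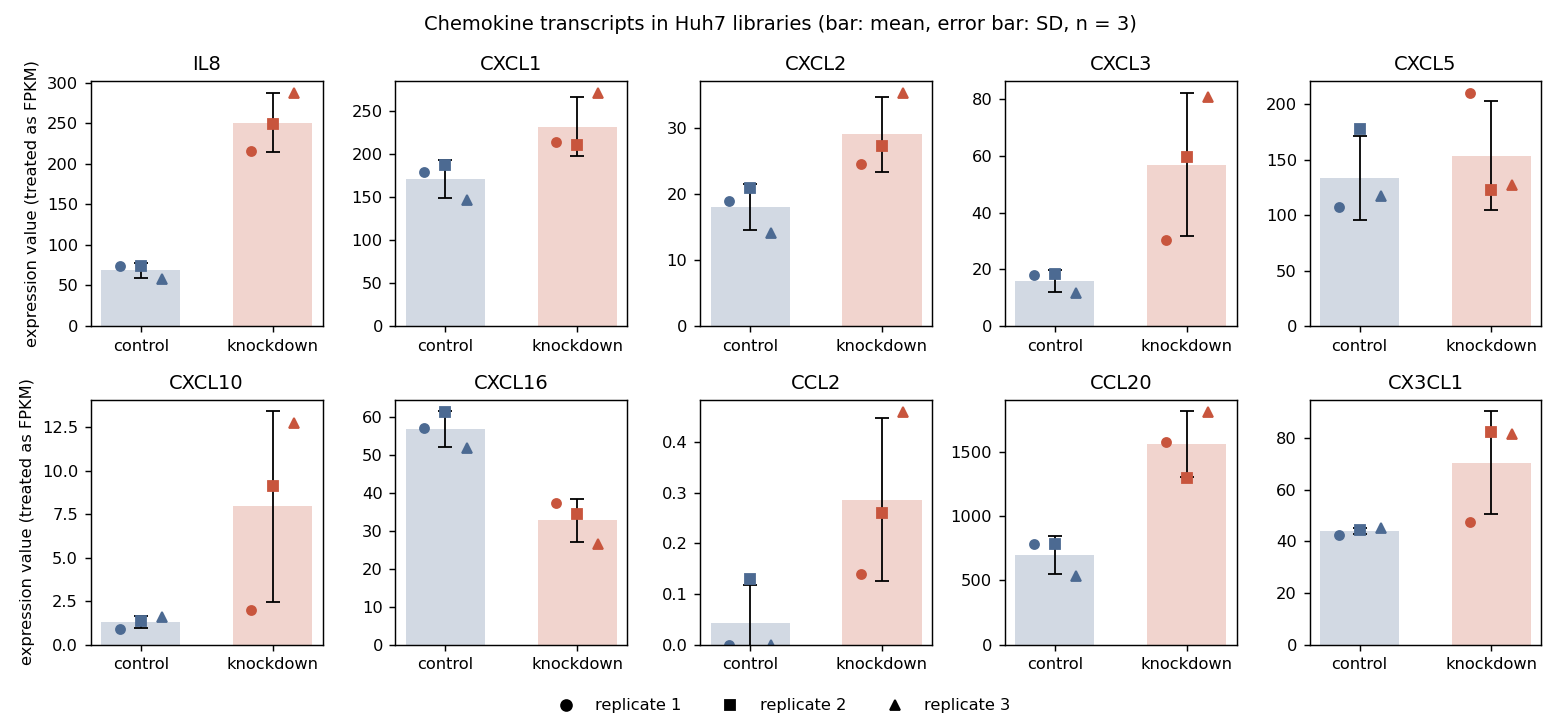
Expression value (treated as FPKM, y axis from 0, own scale in each panel) of the 10 chemokine genes in 3 control and 3 knockdown libraries; symbols mark the replicate number, bars the mean and error bars the SD (n = 3). The control and knockdown points are apart in each panel other than CXCL5, where the highest control library (177) is above knockdown replicates 2 and 3 (123 and 127). For CCL2, at the edge of detection, they are barely apart (0.13 in control replicate 2, 0.14 in knockdown replicate 1). Over all genes tested the groups did not overlap for 33.1%.

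IL8, whose product is the main human neutrophil attractant, showed the clearest change of the ELR genes. It was 73.6, 74.1 and 57.9 in control replicates 1 to 3 and 216, 249 and 287 in knockdown replicates 1 to 3. Every knockdown library was above every control library, and the knockdown mean was 3.66 times the control mean. The log2 fold change was 1.85 (SE 0.15, limma adjusted p = 0.00190). It passed in 12 of 12 alternative settings, with an adjusted p of at most 0.0301. Without knockdown replicate 2, where PTPRC and S100A8 were highest, the log2 fold change of IL8 was 1.85. Among the leukocyte markers LYZ was higher in all 3 knockdown libraries, and S100A9 was 4.13, 30.6 and 1.92 in them and at most 1.65 in control. For every other leukocyte marker with a row the groups overlapped. LYZ was already 18.3 to 24.8 in control libraries, where PTPRC was at most 0.16. A part of such transcripts in the IL8 change was not tested. With library totals taken over all but the mitochondrially encoded genes it was 1.96.

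CXCL1, CXCL2 and CXCL3 encode closely related neutrophil attractants, the GRO proteins. CXCL3 was 18.1, 18.3 and 11.5 in control and 30.3, 59.6 and 80.8 in knockdown libraries. All knockdown values were above all control values, with knockdown replicate 1 the nearest to control. CXCL3 rose (log2 fold change 1.69, SE 0.33, limma adjusted p = 0.0257). This call was kept in 6 of 12 alternatives; it was lost without any 1 library other than knockdown replicate 1, with adjusted p between 0.0684 and 0.0870, and when low genes were kept in the test (0.0717). CXCL1 was 179, 187 and 146 in control and 214, 210 and 271 in knockdown libraries. The groups did not overlap, but the shift was small and CXCL1 did not pass (log2 fold change 0.44, unadjusted 95% interval 0.11 to 0.76, limma adjusted p = 0.0902). CXCL2 was 19.0, 21.0 and 14.2 in control and 24.5, 27.3 and 35.4 in knockdown libraries, again without overlap and without passing (log2 fold change 0.66, unadjusted 95% interval 0.24 to 1.08, limma adjusted p = 0.0594). Without knockdown replicate 1 CXCL1 and CXCL2 passed, with adjusted p = 0.0421 and 0.0180. For all 3 genes the lowest control library was replicate 3 and the highest knockdown library was replicate 3.

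The 3 GRO transcripts resemble each other, so reads may have been split between them. Of the 50-base words of the annotated CXCL2 transcripts 12.5% occur in another gene, and of those of CXCL3 and CXCL1 6.01% and 4.81%. CXCL2 and CXCL3 have 139 such words in common, CXCL1 and CXCL2 60. For IL8, CXCL10, CCL2 and CCL20 no word occurs elsewhere. No source used here gives the read length, so the word length is only a yardstick.

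CXCL5, the gene of the ELR chemokine ENA-78, was 107, 177 and 117 in control and 210, 123 and 127 in knockdown libraries. It was high in control replicate 2 and in knockdown replicate 1, and the groups overlapped. Its log2 fold change was 0.19 (unadjusted 95% interval -0.37 to 0.75, limma adjusted p = 0.652), and -0.06 without knockdown replicate 1. CXCL5 has the same bases GGGAATTTCCC before its start as CXCL1, CXCL2 and CXCL3.

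CCL20 encodes the single chemokine ligand of CCR6, a receptor of memory T cells, B cells and dendritic cells, and was the most abundant of the 10 transcripts. It was 782, 783 and 529.6 in control and 1578, 1298 and 1805 in knockdown libraries. The lowest knockdown library was well above the highest control library. CCL20 rose (log2 fold change 1.17, SE 0.18, limma adjusted p = 0.0150), and the knockdown mean was 2.24 times the control mean. It passed in 11 of 12 alternatives, the exception being without control replicate 2 (adjusted p = 0.0537). By mean value CCL20 ranked 163rd among the genes tested in control and 77th in knockdown libraries.

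CCL2, which encodes the monocyte attractant MCP-1, was at the edge of detection. It was 0, 0.13 and 0 in control and 0.14, 0.26 and 0.46 in knockdown libraries and did not enter the test. From the low values of genes with 1 annotated transcript, 1 read on a CCL2 transcript was estimated to be worth 0.0936 to 0.109. By this estimate the highest CCL2 value stands for about 4.91 reads. The 5% point of those low values was taken as 1 read, so this number is rough and no bound. With low genes kept in the test its log2 fold change was 0.30 (limma adjusted p = 0.192), a difference that was not detectable at this depth.

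CXCL16 and CX3CL1 encode the chemokines that are made as membrane-anchored proteins with a mucin-like stalk and are released by the sheddases ADAM10 and ADAM17. They went different ways. CXCL16 was 57.1, 61.3 and 51.8 in control and 37.3, 34.3 and 26.5 in knockdown libraries. Every knockdown value was below every control value, with means of 56.7 and 32.7. CXCL16 fell (log2 fold change -0.79, SE 0.15, limma adjusted p = 0.0222). The call was kept in 6 of 12 alternatives; it was lost without any 1 library other than knockdown replicate 1, with adjusted p between 0.0540 and 0.101, and when low genes were kept in the test (0.0611). Of the annotated CXCL16 exon bases, 3.04% overlap MED11 on the opposite strand; the other 9 members share no exon base with another gene.

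CX3CL1, the fractalkine gene, was 42.5, 44.5 and 45.0 in control and 47.5, 82.4 and 81.7 in knockdown libraries. Knockdown replicate 1 was just above the control libraries and the other two were far above. CX3CL1 did not pass (log2 fold change 0.63, unadjusted 95% interval 0.17 to 1.09, limma adjusted p = 0.0861), and it did without knockdown replicate 1 (0.88, adjusted p = 0.00115).

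CXCL10, an interferon-inducible gene whose product attracts T cells, was 0.89, 1.36 and 1.58 in control and 1.96, 9.14 and 12.7 in knockdown libraries. As for CX3CL1, knockdown replicate 1 lay near the controls and knockdown replicates 2 and 3 apart from them. CXCL10 did not pass (log2 fold change 1.72, SE 0.50, limma adjusted p = 0.0666). It passed without knockdown replicate 1 (2.39, adjusted p = 0.000359). Without knockdown replicate 2 the log2 fold change was 1.498 (adjusted p = 0.200).

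**Figure D3:**
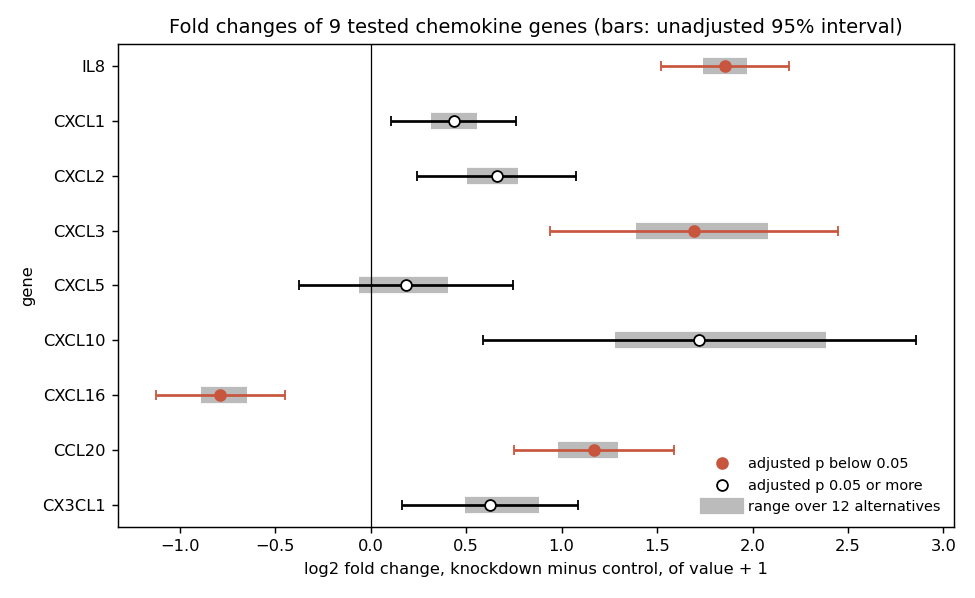
Log2 fold change (x axis, knockdown minus control, of value + 1) of the 9 tested chemokine genes; points are estimates from limma over 3 against 3 libraries, thin bars unadjusted 95% intervals, grey bars the range over 12 alternative settings. IL8 (1.85), CXCL3 (1.69) and CCL20 (1.17) are filled points above 0, CXCL16 (-0.79) is a filled point below 0, and only the range of CXCL5 reaches across 0.

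The 10 members together summed to 1208 ± 206 in the control group and to 2394 ± 319 in the knockdown group (SD, n = 3 each), and CCL20 made up 54.3% to 61.1% and 62.0% to 66.9% of the sum. In control libraries the order by mean was CCL20, CXCL1, CXCL5, IL8, CXCL16, CX3CL1, CXCL2, CXCL3, CXCL10 and CCL2. The library ranges of CXCL1 and CXCL5, of IL8 and CXCL16, and of CXCL2 and CXCL3 overlapped, so these neighbours were not apart. In knockdown libraries IL8 moved to the second place, with a range that overlapped that of CXCL1, and CXCL5 came next after CXCL1. CX3CL1, CXCL3, CXCL16 and CXCL2 followed, with ranges that overlapped from each to the next. The share of IL8 in the sum was 5.42% to 5.94% in control and 9.13% to 11.9% in knockdown libraries, and that of CXCL16 was 4.46% to 5.31% and 0.97% to 1.64%.

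Knockdown replicate 1 differed from the other knockdown libraries in some members and not in others. On the log2(value + 1) scale and relative to the control mean, it was higher by 1.65 for IL8 and 1.20 for CCL20, beside 1.86 and 0.92 in knockdown replicate 2 and 2.06 and 1.39 in knockdown replicate 3. For CXCL3 it was 0.91 in knockdown replicate 1 against 1.87 and 2.30. For CXCL10 it was 0.39 against 2.17 and 2.60, and for CX3CL1 0.11 against 0.89 and 0.88. VCAN itself was lowered to a like degree in all knockdown libraries, by -1.32, -1.40 and -1.46. The median over the 9 members was 0.44, 0.89 and 0.95 in knockdown replicates 1, 2 and 3.

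**Figure D4:**
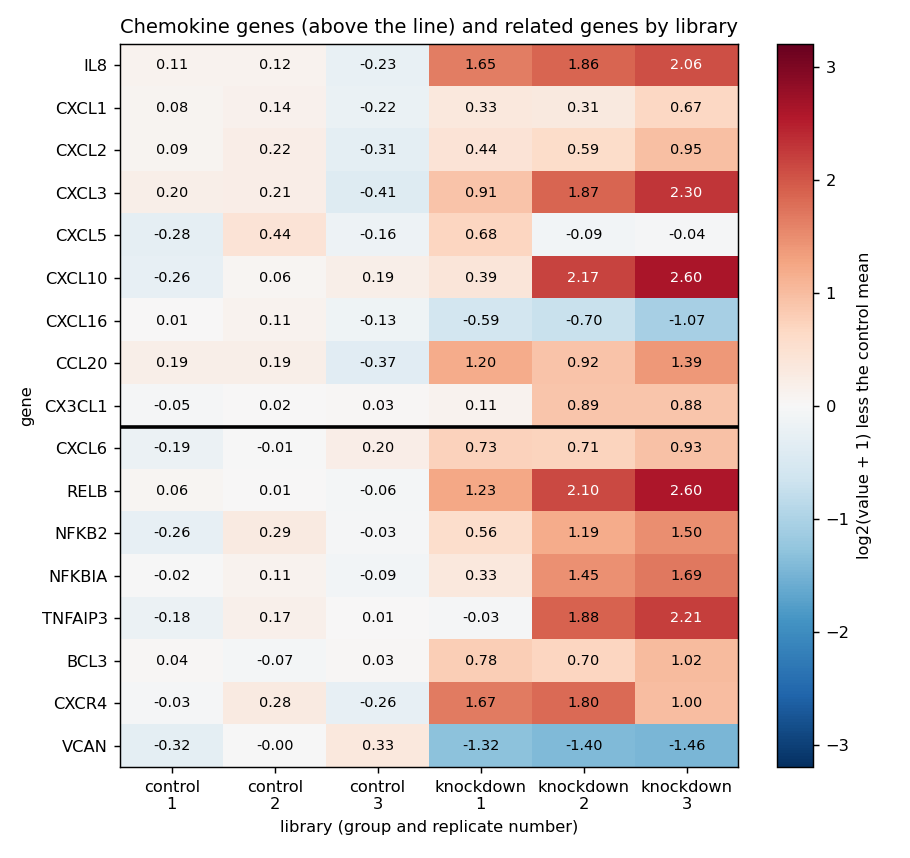
Log2(value + 1) of each gene in each of the 6 libraries less the mean of the 3 control libraries (colour and printed number); genes are rows, with 9 chemokine members above the line and CXCL6, NF-kB genes, CXCR4 and VCAN below it. IL8 and CCL20 are high in the 3 knockdown libraries, whereas CXCL10, CX3CL1, NFKBIA and TNFAIP3 are close to the control level in knockdown replicate 1 (0.39, 0.11, 0.33 and -0.03).

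Among 38 other chemokine genes looked for, 20 had a row and 4 were tested. CXCL6, another ELR gene of the chromosome 4 group, was 7.96, 9.13 and 10.8 in control and 15.9, 15.7 and 18.5 in knockdown libraries. The groups were apart and CXCL6 rose (log2 fold change 0.79, SE 0.15, limma adjusted p = 0.0217), in 7 of 12 alternatives, with an adjusted p of 0.0672 and 0.0915 without control replicates 1 and 2, and of 0.0688 and 0.0769 without knockdown replicates 2 and 3. CCL15 (0.10), CCL28 (-0.10) and XCL1 (0.45) did not pass. The platelet chemokine gene PPBP was 11.4 in knockdown replicate 2 and 0 in the other 5 libraries, and PF4 was 2.76 there and at most 0.60 elsewhere. CCL5 was 3.60 in that library and at most 0.15 elsewhere. These 3 genes are made by blood cells, and a part of the leukocyte transcripts of that library in these values was not tested. CCL4 and its near-identical copy CCL4L1 were 4.34 and 1.73 in knockdown replicate 2, and 5.29 and 2.39 in knockdown replicate 3. Elsewhere CCL4 was at most 0.24 and CCL4L1 was 0. The mean of CCL14 was 0.44 in control and 1.13 in knockdown libraries.

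In RefSeq order, IL8, CXCL6, PF4V1, CXCL1, PF4, PPBP, CXCL5, CXCL3 and CXCL2 follow each other on chromosome 4, without another protein-coding gene between them. Of the 6 tested genes of this run, IL8, CXCL6 and CXCL3 rose, and CXCL1, CXCL5 and CXCL2 did not pass. All but CXCL6 are members already counted above, and over all genes tested 4.15% rose. The neighbours were looked at after their values were seen. MTHFD2L, next after CXCL2, had 6.86, 7.31 and 6.35 in control and 7.54, 6.54 and 3.84 in knockdown libraries, without passing (limma adjusted p = 0.555). EREG, the epiregulin gene farther along, went from a mean of 5.81 to 17.3 (log2 fold change 1.47, adjusted p = 0.0109). AFM, on the other side of IL8 beyond RASSF6, went from 1.72 to 7.34 (1.59, adjusted p = 0.0190; 0.0679 and 0.0869 without control replicates 1 and 2, and 0.0698 and 0.0567 without knockdown replicates 2 and 3). CXCL10 lies in a separate run with CXCL9 and CXCL11; CXCL11 was at most 0.09 in any library.

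Receptors for these chemokines were low in these cells. Of 27 receptor symbols, 16 had a row and 5 were tested. CXCR4, the receptor of CXCL12, was 1.11, 1.61 and 0.80 in control and 5.82, 6.50 and 3.29 in knockdown libraries and rose (log2 fold change 1.49, SE 0.25, limma adjusted p = 0.0162; 0.0511 to 0.0613 in the 5 alternatives that lost the call, 4 of which left out control replicate 1, 2 or 3 or knockdown replicate 2). CCR6, the receptor of CCL20, was 3.72, 5.81 and 6.24 in control and 3.07, 4.96 and 3.59 in knockdown libraries, with overlap and without passing (-0.35, adjusted p = 0.312). CXCR2 was at most 0.03 and CX3CR1 at most 0.18.

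Of 17 NF-kB subunits, kinases and inhibitors, all tested, 3 rose and 0 fell, beside 4.15% and 3.94% of all genes tested. Their median change on the log2 scale was 0.38, and that of all genes tested was -0.03. The alternative-pathway subunit genes RELB (10.0 to 45.6, 1.98, limma adjusted p = 0.0128) and NFKB2 (18.7 to 41.7, 1.08, adjusted p = 0.0347) and the atypical inhibitor gene BCL3 (42.4 to 76.5, 0.83, adjusted p = 0.0118) rose. RELB was kept in 9, NFKB2 in 5 and BCL3 in 11 of 12 alternatives; without control replicate 2 RELB and BCL3 both had adjusted p = 0.0625. RELB was also lost without control replicate 1 (0.0528) and knockdown replicate 2 (0.0550), and NFKB2 without any 1 library other than knockdown replicate 1 (0.0869 to 0.110, the highest without knockdown replicate 2). The canonical subunit genes RELA (0.34, adjusted p = 0.155) and NFKB1 (0.14, adjusted p = 0.707) did not pass. The feedback inhibitor genes NFKBIA and TNFAIP3, chosen after their values were seen, had the library pattern of CXCL10. NFKBIA was 44.6, 48.8 and 42.3 in control and 56.9, 125 and 147.5 in knockdown libraries (1.155, adjusted p = 0.0529). TNFAIP3 was 11.8, 15.3 and 13.5 in control and 13.2, 52.3 and 65.8 in knockdown libraries (1.35, adjusted p = 0.160). Without knockdown replicate 1 both passed, NFKBIA at 1.57 (adjusted p = 0.000187) and TNFAIP3 at 2.04 (adjusted p = 0.000183). Without knockdown replicate 3 they were 0.89 and 0.93. NF-kB activity itself was not measured.

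The inducers IL1B, TNF and IL6 were low. IL1B was at most 0.26 in any library, TNF at most 0.86, and IL6 was 0.44, 0.74 and 1.91 in knockdown and at most 0.12 in control libraries. Of 28 inducing cytokines, receptors and adaptors with a row, 19 were tested, 5 rose and 1 fell, with a median of 0.24. Over all genes tested 4.15% rose and 3.94% fell. The most abundant cytokine genes of the list, named after their values were seen, were IL18 and IL32. IL18 was 227, 185 and 199 in control and 355, 289.6 and 269 in knockdown libraries and rose (0.57, limma adjusted p = 0.0409; 0.0678 to 0.147 without any 1 library other than knockdown replicate 1). IL32 was 239, 209.5 and 346 in control and 358, 390.2 and 483 in knockdown libraries, without passing (0.65, adjusted p = 0.0707). LIF (0.58 to 4.37, limma adjusted p = 0.00618), the lymphotoxin gene LTB (2.40 to 7.04, 0.0217), CSF1 (3.37 to 8.37, 0.0222) and IL1RAP, the accessory chain of the interleukin-1 receptor (20.9 to 54.1, 0.0102), were among those that rose. LIF was below 1 in every control library, so it entered the test only through the knockdown libraries, where it is high. It passed in the 9 alternatives that could test it; without any 1 knockdown library it missed the filter. The call was kept in 11 of 12 alternatives for IL1RAP (0.0511 without control replicate 2), 7 for LTB and 6 for CSF1. Without knockdown replicate 2 LTB had adjusted p = 0.0671 and CSF1 0.0765. LTB was also lost without control replicate 1 or 2 or knockdown replicate 3 (up to 0.0915), and CSF1 without any 1 control library or knockdown replicate 3 (up to 0.0792).

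Of 11 AP-1 and C/EBP factor genes, 5 rose and 1 fell, with a median of 0.96, beside 4.15% and 3.94% of all genes tested. JUNB (57.6 to 171, log2 fold change 1.59, limma adjusted p = 0.0128), FOSL2 (1.12 to 5.55, 1.61, 0.0131) and CEBPD (63.1 to 105, 0.72, 0.0190) rose and CEBPA (50.6 to 19.6, -1.36, 0.0247) fell. Over 12 alternatives JUNB was kept in 11, FOSL2 in 9 and CEBPD and CEBPA in 7 each. Without knockdown replicate 2 FOSL2 (adjusted p = 0.0549) and CEBPA (0.0762) were lost. Without control replicate 2 JUNB (0.0655), FOSL2 (0.0508), CEBPD (0.0843) and CEBPA (0.102) were lost. Without control replicate 1 FOSL2 (0.0566), CEBPD (0.0660) and CEBPA (0.0666) were lost, without control replicate 3 CEBPD (0.0547) and CEBPA (0.0597), and without knockdown replicate 3 CEBPD (0.0567). Of 18 tested interferon signalling genes, 1 rose and 0 fell (median 0.30), near the 4.15% and 3.94% of all genes tested. The gene that rose was the receptor gene IFNGR2 (41.2 to 67.9, 0.71, limma adjusted p = 0.0131). Its call was kept in 9 of 12 alternatives. The adjusted p was 0.0610 without control replicate 2, 0.0505 without control replicate 3 and 0.0540 without knockdown replicate 2. IRF1 (0.73, adjusted p = 0.0772), a factor that acts on CXCL10, did not pass. Sheddases, their partner proteins and other enzymes that cut chemokines gave 11 tested genes. Of these, 1 rose and 0 fell (median 0.16), beside 4.15% and 3.94% of all genes tested. It was RHBDF1, a partner of ADAM17 (9.65 to 23.8, 1.13, adjusted p = 0.0434, kept in 4 of 12; 0.134 without knockdown replicate 2, and 0.101 to 0.140 without any 1 library other than knockdown replicate 1). ADAM10 (-0.10, adjusted p = 0.642) and ADAM17 (0.35, adjusted p = 0.186) did not pass.

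Chemokine transcripts are known for AU-rich stretches near their 3′ end, which RNA-binding proteins read to hasten their decay. In the longest annotated coding transcript of each member, the pentamer ATTTA occurred 13.9 times per kilobase of 3′ UTR in CXCL2, 10.4 in CXCL3, 7.19 in IL8, 7.08 in CXCL1, 6.24 in CCL20 and 5.51 in CXCL5. It occurred 2.66 times in CCL2, 1.23 in CXCL10, 1.02 in CXCL16 and 0.995 in CX3CL1. The median over 11107 tested genes was 1.78 and the upper 5% began at 6.11. The 9-base form TTATTTATT was present in CXCL2 (5 times), CXCL1 (3 times), CXCL3, IL8 and CX3CL1 (once each) and in 9.32% of the 11107 genes. The 3 members that rose, CXCL3, IL8 and CCL20, were above 6.11, as were CXCL2 and CXCL1, which did not pass. CXCL16, which fell, and CCL2, which was not tested, were below it. So were CXCL5, CX3CL1 and CXCL10, which did not pass, with log2 fold changes of 0.19, 0.63 and 1.72. A part of these stretches in the changes was not tested. A list of 11 genes held proteins that bind or serve such stretches or, like ZC3H12A, act on RNA decay in another way. Of these, 3 rose and 0 fell (median -0.11), beside 4.15% and 3.94% of all genes tested. Those that rose were the decay factor genes ZFP36 (23.7 to 41.8, 0.78, limma adjusted p = 0.0218), ZFP36L1 (19.7 to 41.3, 0.99, 0.0324) and ZC3H12A (13.5 to 27.1, 0.94, 0.0357), kept in 6, 6 and 4 of 12 alternatives. Without knockdown replicate 2 their adjusted p was 0.0803, 0.107 and 0.116. They were lost without any 1 library other than knockdown replicate 1, ZFP36 at 0.0526 to 0.0968, ZFP36L1 at 0.0882 to 0.109 and ZC3H12A at 0.0909 to 0.116.

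For each member that passed, the genes with the closest pattern, among those with a mean log2(value + 1) of at least 3 that are neither clone names nor GENCODE pseudogenes, were found by the root mean square difference, over the 6 libraries, of log2(value + 1) less the control mean. For IL8, TMSB4X (0.17) and UNC93A (0.19) were the nearest. CXCL3 was nearest to BTG2 (0.19), SAMD4A (0.22) and BIRC3 (0.22). Their lower value in knockdown replicate 1 follows from this choice, since that library was among the 6 compared. BIRC3, for example, was 3.19, 4.24 and 2.97 in control and 9.60, 17.7 and 21.5 in knockdown libraries. CCL20 was nearest to AGT (0.21), SULT1A3 (0.22) and TIMP2 (0.22). CXCL16 was nearest to ALYREF (0.058), NCAPG (0.060) and GEMIN2 (0.061). TMSB4X and SULT1A3 have near-identical copies, and their reads are uncertain.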

How the data were processed

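RNA was sequenced from 6 Huh7 libraries, grouped and numbered by their titles. The authors deposited 1 table of 23344 human Ensembl gene IDs with symbols. The deposited values, which the authors had normalized per gene length and library before deposit, judged from the values, were treated as FPKM; the file header names no unit, and TPM cannot be told from it. The submitters' processing notes name, with no roles, the aligner Bowtie2 2.2.6, the quantifier RSEM 1.1.17, the read tools Trimmomatic 0.36 and bcl2fastq 2.19.0, DESeq2 1.16.1, edgeR 3.18.1, and a mouse build, so gene coordinates are not given; promoter coordinates are those of RefSeq.

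The 13696 genes that reached 1 or more in 3 or more libraries were tested with limma 3.58.1 in R 4.3.3 on log2(value + 1), with trend and robust moderation, two-sided, Benjamini-Hochberg adjusted over all of them. The scale understates changes of low genes. The fit was tested on simulated data. Depth is unknown, so no counting intervals are given. Members, lists and tests were chosen with earlier results of these data known. All 10 members are named. From each related list up to 4 called genes with the smallest p and fixed genes are named, and neighbouring genes, NFKBIA and TNFAIP3 were added after their values were seen. Alternatives, 12 in all, comprised no filter, a pseudocount of 0.1, 2 other scalings, limma without moderation options, the replicate block and leaving out each library. GENCODE release 29 gave transcripts, exons and UTRs. Some genes that the naming rule picks are not reported here.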

Additional observations from a re-analysis of the deposited data

How the results depend on the processing

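Over 12 alternatives the directions of the 9 tested members were unchanged apart from CXCL5, whose log2 fold change ran from -0.062 (without knockdown replicate 1) to 0.41 (without control replicate 2). The number of members called was 4 with all libraries; keeping low genes in the test gave 2, and counts ran from 1 to 8 when each library was left out in turn. The number of all genes called was 1107, against 221 with no filter, 727 with limma without trend and robust moderation, and 56 to 3284 when each library was left out. The log2 fold change of VCAN ranged from -1.56 to -1.23 in those fits and lost its call without control replicate 2 (-1.40). With the mitochondrially encoded genes left out of the scaling 680 genes were higher and 223 lower, against 568 and 539. Among genes that did not pass, the sign turned in some fits without 1 library. NFKB1 ran from -0.011 (without control replicate 1) to 0.33 (without knockdown replicate 1), and was -0.0014 without knockdown replicate 2. CCL15 ran from -0.098 (without control replicate 2) to 0.34 (without knockdown replicate 1), and was -0.097 without knockdown replicate 3. MTHFD2L ran from -0.37 (without knockdown replicate 1) to 0.035 (without knockdown replicate 3). The causes were not tested.

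With the replicate number as a block, 5 members and 861 genes were called, CXCL10 being the added member (limma adjusted p = 0.0479). The deviations of same-numbered libraries correlated at 0.053, 0.10 and 0.14 across genes for numbers 1, 2 and 3, and control replicate 1 was closest to knockdown replicate 3 (0.080), so the numbers are not taken to pair the libraries. Since reads per library are unknown, changes of genes near 0, such as CCL2, could not be resolved.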
